A study of Mus musculus with 2 samples.

Results

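The alcohol, aldehyde and retinol dehydrogenases were examined in regenerating mouse liver by taking every listed gene whose symbol starts with Adh, Aldh, Rdh or Dhrs followed by a digit, pseudogenes left out. This rule found 50 of the 34745 listed genes, namely 6 *Adh*, 21 *Aldh*, 12 *Rdh* and 11 *Dhrs* genes. One of the *Dhrs* entries, *Dhrs13os*, is an antisense RNA and encodes no enzyme. RNA-seq of polyadenylated RNA was available for whole liver of miR-182-5p knockout (KO) and wild-type (WT) males, 8 to 10 weeks old, on day 3 after partial hepatectomy (PH), in which 70% of the liver is removed. The KO mice, labelled miRNA-182 KO, are heterozygous and keep an intact allele of the miRNA. Each genotype was represented by 1 library, and the number of mice behind it is not given in the sources used here, so no difference below has a replicate check or a test.

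These enzymes pass hydrogen between NAD or NADP and alcohols or aldehydes. Alcohol dehydrogenases (ADH) oxidise ethanol, retinol and other alcohols to aldehydes, and aldehyde dehydrogenases (ALDH) carry aldehydes on to acids, as in the step from acetaldehyde to acetate or from retinaldehyde to retinoic acid. The RDH and DHRS enzymes are short-chain dehydrogenases, many of which convert retinol and retinaldehyde into each other, and some of which also act on steroids. Hepatocytes are the main site of ethanol oxidation, and stellate cells hold most of the liver's retinol as esters.

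Total counts were 13247497 for KO and 13163348 for WT. Mitochondrial genes made up 51.7% of the former and 31.0% of the latter, and values are therefore given under more than one scaling. Counts were scaled by TMM, which sets the ratio between libraries from the bulk of genes, and scaled levels are given as CPM, counts relative to the scaled library size. Differences are log2 fold changes of KO over WT with an exact 95% binomial interval that covers counting error only. The 13561 genes whose counts reached 10 when both libraries were added were kept, and a gene was called higher or lower from 1 upwards or from −1 downwards on the log2 scale. The 8 hepatocyte markers were detected in both libraries, with a summed level of 58442 CPM in KO and 56684 CPM in WT, and none of them was called.

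Most of the expressed dehydrogenase genes differed less than 2-fold between the libraries. Of the 50 genes, 36 had enough counts. Among these, *Adh7* was at least 2-fold higher in the KO library, *Rdh9*, *Aldh3b3* and *Dhrs7* were at least 2-fold lower, and 32 lay within 2-fold. Across all genes kept, 9.46% were called higher and 9.94% lower. The 4 called genes of 36 are a smaller share than that background, so the calls are not a result about these families. By sign, 25 members were below 0 and 11 above, with a median log2 fold change of −0.26 against 0.00 over all genes kept. With libraries scaled by total counts instead, 35 members were below 0 and 1, *Adh7*, above, where 81.7% of all genes kept were below 0. The counting interval lay wholly below 0 for 21 members, wholly above 0 for 5, and spanned 0 for 10.

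**Figure D1:**
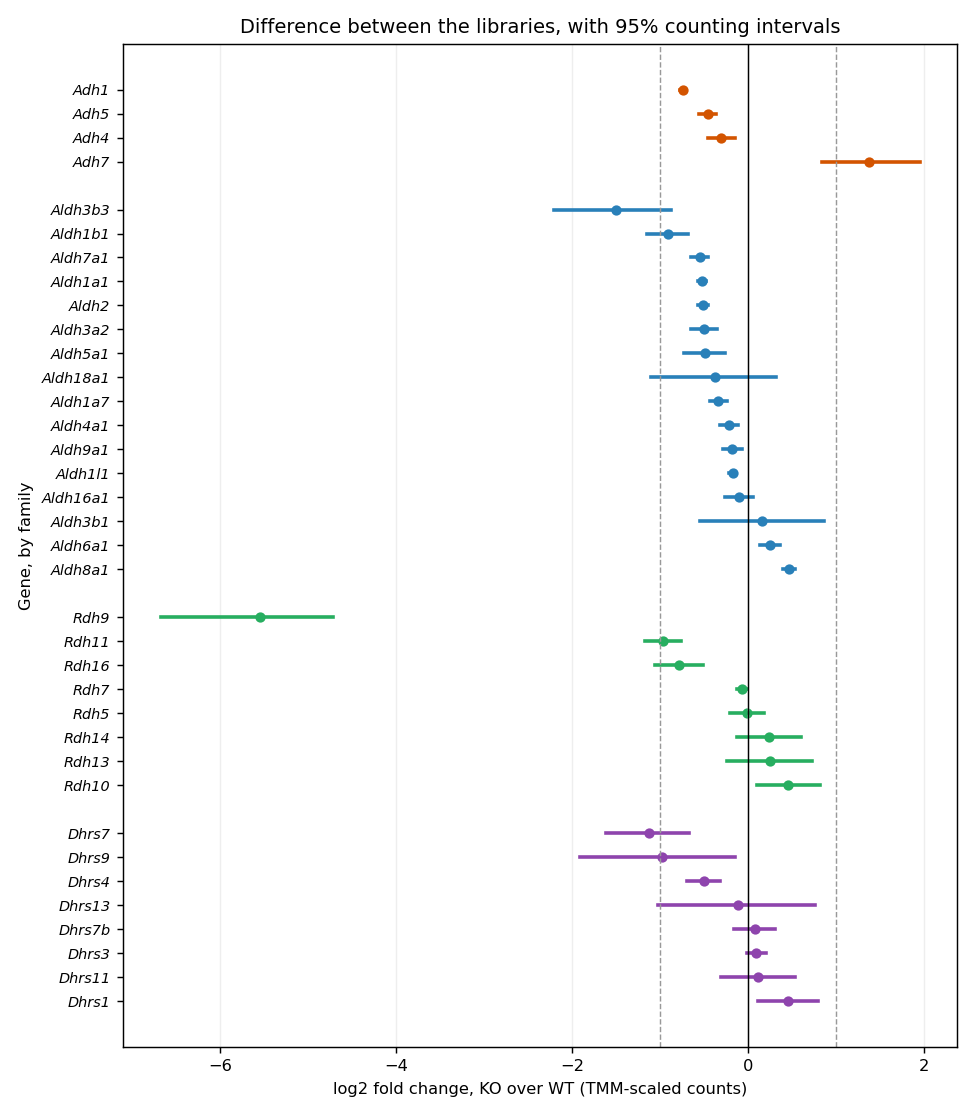
Points give the log2 fold change of KO over WT (horizontal axis, TMM-scaled counts) of each of the 36 members kept (vertical axis, by family), and bars the exact 95% counting interval; the solid line is the median of all genes and the dashed lines mark 2-fold. *Rdh9* stands far to the left at −5.55, *Adh7* is the only point to the right of 2-fold, and most *Adh* and *Aldh* points lie a little to the left of the solid line.

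By their medians, the *Adh* and *Aldh* families were lower than the short-chain dehydrogenases. The median log2 fold change was −0.38 over 4 *Adh* genes and −0.36 over 16 *Aldh* genes, against −0.04 over 8 *Rdh* genes and −0.02 over 8 *Dhrs* genes. Summed over a family, the *Adh* genes took 1252 CPM in KO and 2031 CPM in WT, and the *Aldh* genes took 2423 CPM and 2931 CPM. The corresponding sums were 517 CPM and 611 CPM for *Rdh*, and 199 CPM and 206 CPM for *Dhrs*. On the log2 scale the sums differed by −0.70 for *Adh*, −0.27 for *Aldh*, −0.24 for *Rdh* and −0.05 for *Dhrs*, so *Aldh* and *Rdh* were close by their sums. These differences between families were not tested.

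The pattern was plainest among the members with many reads. Of 24 members with at least 500 counts in all, 20 were below 0 and 4 above, and the median was −0.40, while all 4066 genes at that depth had a median of −0.02, with 2098 below 0. Only *Rdh9* among the 24 passed 2-fold, and none was 2-fold higher. At that depth 3.86% of all genes were called higher and 4.18% lower.

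**Figure D2:**
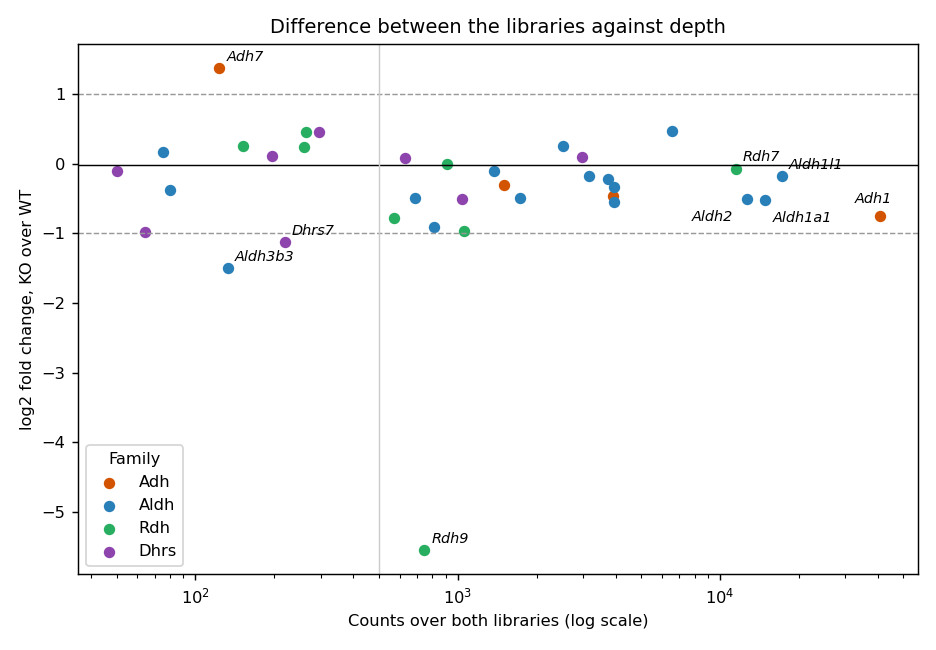
The log2 fold change of KO over WT (vertical axis) is plotted against the counts over both libraries (horizontal axis, log scale) for the 36 members, coloured by family, with dashed lines at 2-fold, a solid line at the median of genes with at least 500 counts and a grey line at 500 counts. To the right of the grey line 20 of 24 points are below 0, and *Rdh9* is the only one beyond 2-fold.

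Per gene length the families were led by a few transcripts. On the authors' FPKM scale (fragments per kilobase of transcript, scaled by total counts), *Adh1* had the highest level of all members in both libraries, 320 in KO and 812 in WT. *Aldh1a1*, at 173 in KO and 376 in WT, and *Rdh7*, at 186 and 297, came next and changed places between the libraries. *Aldh1l1* followed in both, with 74.3 in KO and 127 in WT. *Adh1* made up 91.9% of the summed FPKM of its family in WT and 89.4% in KO, and *Rdh7* made up 85.8% and 90.2% of its own. The *Aldh* family was spread more widely, and *Aldh1a1* held 41.1% of it in WT and 35.8% in KO. In the *Dhrs* group *Dhrs4*, which reduces retinaldehyde and other carbonyls in peroxisomes, held 45.3% in WT and 38.0% in KO. Without replicates no error beyond counting could be estimated for the order of neighbouring genes.

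**Figure D3:**
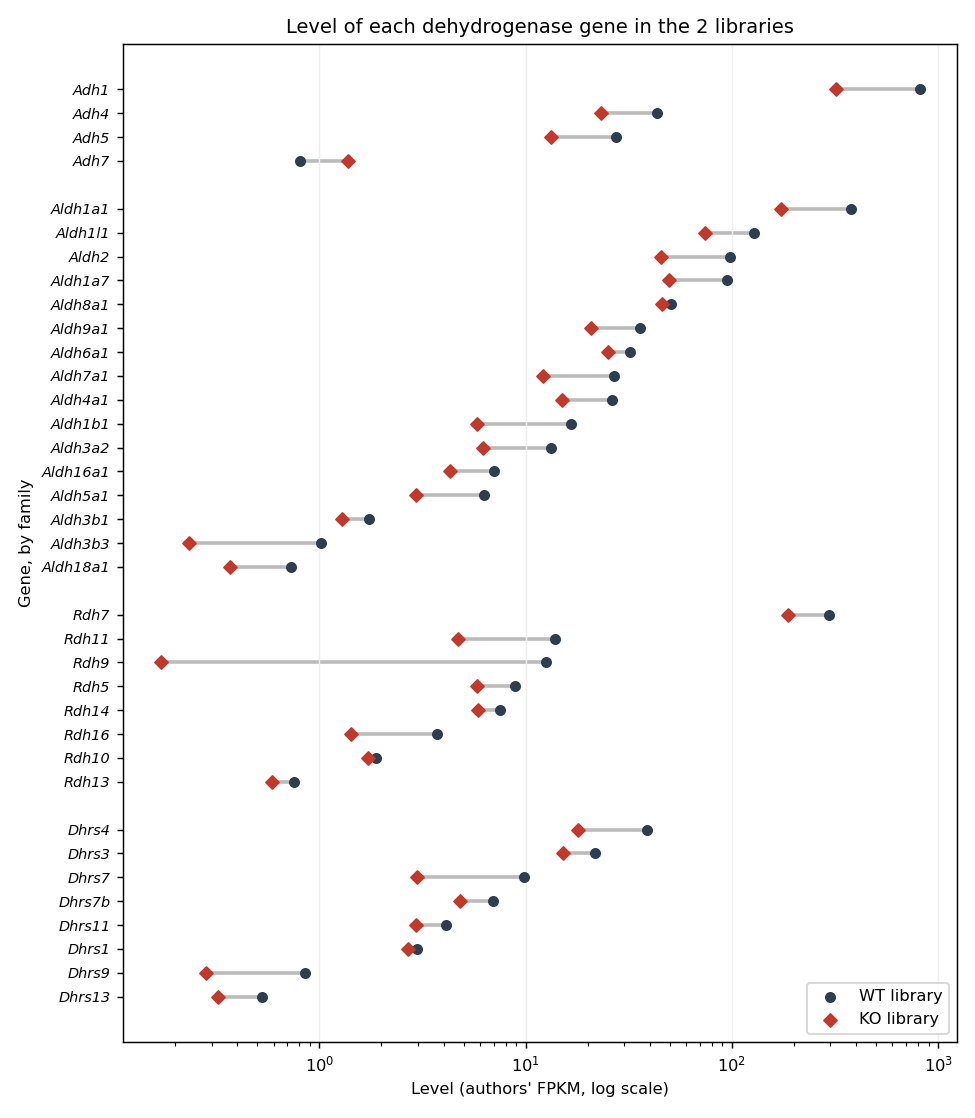
The authors' FPKM (horizontal axis, log scale) of each of the 36 members is shown for the KO library (red diamonds) and the WT library (dark circles), by family and in order of the WT level. *Adh1*, *Aldh1a1* and *Rdh7* are the highest points, and only *Adh7* has its diamond to the right of its circle on this scale.

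Among the alcohol dehydrogenases, the 3 genes with substantial expression were all lower in the KO library. *Adh1* (ENSMUSG00000074207, chr3:138260991-138290698), the class I enzyme that does most of the liver's ethanol oxidation, had 11589 counts in KO and 29270 in WT, a log2 fold change of −0.74 (−0.78 to −0.71) or a ratio of 0.597. *Adh5*, the glutathione-dependent formaldehyde dehydrogenase, had 1278 and 2648 counts (−0.46, −0.56 to −0.36). *Adh4*, the class II enzyme, had 523 and 973 counts (−0.30, −0.46 to −0.15). Their intervals lay below 0 and inside 2-fold.

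*Adh7*, the class IV enzyme, best known from the stomach lining as a retinol and ethanol dehydrogenase, went the other way. It had 78 counts in KO and 45 in WT (1.37, 0.84 to 1.95), at an FPKM of 1.38 and 0.802, and among the *Adh* genes kept it alone had more counts in the KO library. It lies next to *Adh1* on the same strand (chr3:138217760-138233382) and overlaps the antisense gene *0610031O16Rik* on the other strand, which had 138 counts in KO and 139 in WT. Whether the counting used strand is not given in the sources used here, so reads of this pair cannot be told apart. The same limit holds for *Aldh16a1*, *Aldh7a1*, *Aldh5a1*, *Aldh2*, *Aldh6a1* and *Dhrs13*, which also overlap a gene with reads on the other strand. Partners with many reads were *Pih1d1* at *Aldh16a1* (275 counts in KO and 419 in WT) and *Phax* at *Aldh7a1* (143 and 280). *Adh6a* had 1 count in KO and *Adh6b* none in either library. The pseudogene *Adh6-ps1*, outside the rule, had 618 counts in KO and 474 in WT (0.97).

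The retinaldehyde dehydrogenases differed among themselves. *Aldh1a1* (ENSMUSG00000053279, chr19:20601961-20643462), the cytosolic enzyme that turns retinaldehyde into retinoic acid, had 4694 counts in KO and 10168 in WT (−0.52, −0.57 to −0.47). *Aldh8a1*, described as an oxidiser of 9-cis-retinaldehyde and of an intermediate of tryptophan breakdown, had 3138 and 3432 counts (0.46, 0.39 to 0.53), the highest log2 fold change in the *Aldh* family. *Aldh1a2* and *Aldh1a3*, the other retinaldehyde dehydrogenases, had 6 and 4 counts in all. *Aldh1a7*, a rodent relative of *Aldh1a1*, had 1357 and 2585 counts (−0.34, −0.43 to −0.24). It shares 7.24% of its 51-base words with *Aldh1a1*, and the counts summed over both genes gave −0.48 (−0.53 to −0.44).

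Both mitochondrial acetaldehyde dehydrogenases were lower. *Aldh2*, which clears most of the acetaldehyde made from ethanol, had 4038 counts in KO and 8694 in WT (−0.51, −0.57 to −0.46). *Aldh1b1*, a mitochondrial relative, had 211 and 600 counts (−0.91, −1.15 to −0.69) and was the *Aldh* gene just short of the 2-fold limit. Among other genes around ethanol and acetate, *Cyp2e1*, a cytochrome P450 that also oxidises ethanol, was at 0.12, catalase (*Cat*) at −0.09 and *Adhfe1*, a hydroxyacid-oxoacid transhydrogenase, at −0.01. *Acss2*, which turns acetate into acetyl-CoA, was at −0.57, and its mitochondrial relative *Acss3*, with 9 and 18 counts, at −0.39. None of the 5 genes kept from this list was called.

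Of the fatty aldehyde enzymes, *Aldh3a2*, which removes long-chain aldehydes in the endoplasmic reticulum, had 554 counts in KO and 1178 in WT (−0.50, −0.64 to −0.35). *Aldh3b3* had 25 and 108 counts (−1.50, −2.21 to −0.88), the only *Aldh* gene called. It stands beside the related *Aldh3b1*, with 32 and 43 counts (0.16, −0.54 to 0.86), and *Aldh3b2*, with 0 and 9 counts, and it shares 12.7% of its 51-base words with other genes, mostly *Aldh3b2*. The counts summed over these 3 genes were 57 in KO and 160 in WT (−0.89, −1.36 to −0.45), so the sum was within 2-fold. *Aldh3a1* had 2 counts in KO and 0 in WT.

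The remaining *Aldh* genes, most of them of amino acid, carnitine or one-carbon metabolism, gave small differences, mostly below 0. *Aldh1l1*, the 10-formyltetrahydrofolate dehydrogenase that disposes of one-carbon units, had 6363 counts in KO and 10839 in WT (−0.18, −0.22 to −0.13). *Aldh7a1*, which acts in lysine breakdown, had 1229 and 2715 counts (−0.55, −0.65 to −0.45), and *Aldh5a1*, the succinic semialdehyde dehydrogenase, had 221 and 468 (−0.49, −0.73 to −0.26). *Aldh6a1*, the methylmalonate semialdehyde dehydrogenase of valine breakdown, had 1111 and 1407 (0.25, 0.14 to 0.37) and was the only one of this group above 0. *Aldh4a1* and *Aldh18a1* work at opposite ends of proline metabolism, breakdown and synthesis. *Aldh4a1* had 1354 and 2372 counts (−0.22, −0.31 to −0.12) and *Aldh18a1* had 27 and 53 (−0.38, −1.11 to 0.31). *Aldh9a1*, which serves carnitine synthesis, had 1173 and 2000 counts (−0.18, −0.28 to −0.07). *Aldh16a1* had 526 and 854 (−0.11, −0.27 to 0.05), and *Aldh1l2* had 2 counts in WT alone. *Aldh4a1* shares 29.98% of its words with *Gm21969*, on which no read was counted in either library.

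The *Rdh* genes held the one very large difference, and it concerns a pair of overlapping genes. *Rdh9* (ENSMUSG00000056148, chr10:127776386-127792697), an enzyme for cis-retinols and 3α-hydroxysteroids, had 10 counts in KO and 734 in WT, a log2 fold change of −5.55 (−6.67 to −4.72). *Gm28046* (ENSMUSG00000099009, chr10:127759787-127792694, named Rdh16f1 in GENCODE release M21) had 330 counts in KO and 0 in WT. With the WT library taken at 3 counts, *Gm28046* was 165.8-fold higher in the KO library, or 7.37 on the log2 scale. Its exact interval of counting error starts lower, at 7.07 on that scale. The counts of these genes thus differed in opposite directions.

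In the annotation, *Gm28046* joins the first exon of *Rdh1* to exons 2 to 4 of *Rdh9*. Of the 2698 bases of the *Rdh9* transcript, 2302 (85.3%) lie in exons that *Gm28046* also uses, so a read there fits both genes. Only the first exons differ in place, 393 bases for *Rdh9* and 464 for *Gm28046*. Their coding parts, 313 bases each, differ at 12 positions, with up to 105 bases in a row the same. The last 60 bases of exon 1 (lower case) and the first 30 of exon 2 (capitals) are shown for both transcripts, where the different first exons meet the shared exon 2. They are on the plus strand of chromosome 10 in GRCm38, exon 1 ending at 127760250 in *Gm28046* and at 127776797 in *Rdh9* and exon 2 starting at 127788608 in both.
Gm28046: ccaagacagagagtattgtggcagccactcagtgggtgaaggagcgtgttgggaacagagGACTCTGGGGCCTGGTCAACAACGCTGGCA
Rdh9: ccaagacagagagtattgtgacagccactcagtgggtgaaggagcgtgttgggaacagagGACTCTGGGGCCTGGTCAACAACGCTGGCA

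These junctions differ at 1 of 60 bases in exon 1 and at none of 30 in exon 2. The *Rdh1* transcript has the same bases as *Gm28046* at its own step from exon 1 to exon 2, with 0 differences. The bases shown therefore do not identify *Gm28046*. Added together, *Rdh9* and *Gm28046* had 340 counts in KO and 734 in WT, a log2 fold change of −0.52 (−0.71 to −0.33). That sum lies within 2-fold and near *Aldh1a1* and *Aldh2*. Which of the transcripts the KO reads came from cannot be told apart in gene counts, and the division of reads between them was not tested.

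**Figure D4:**
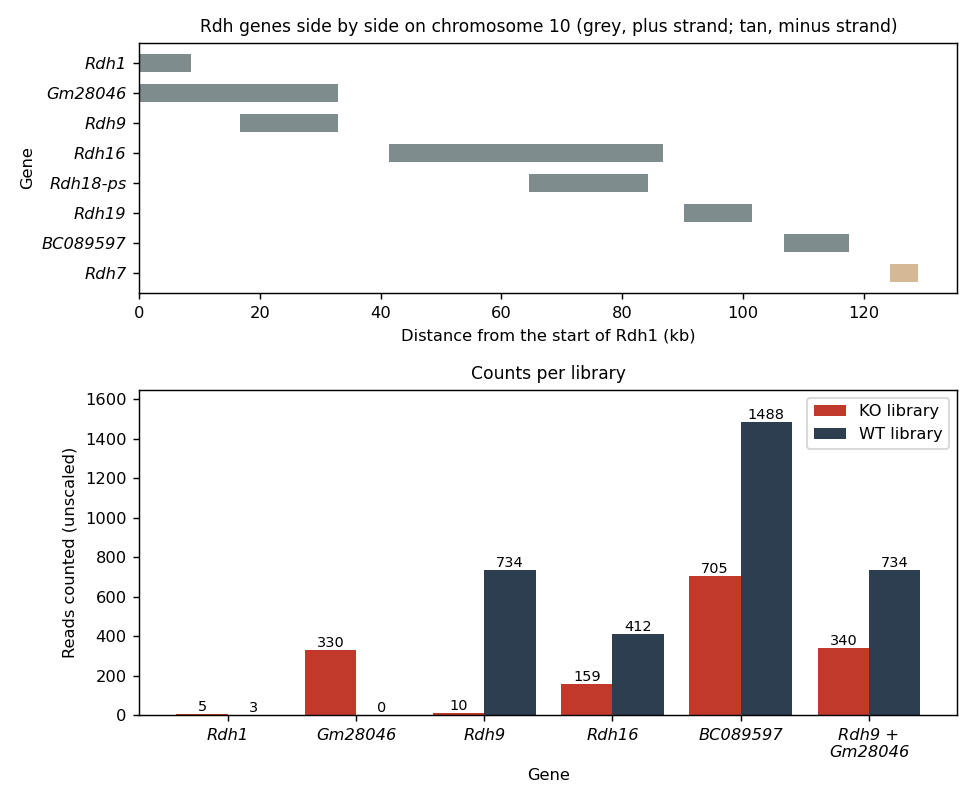
The upper panel maps the *Rdh* genes of chromosome 10 by distance from the start of *Rdh1* (horizontal axis, kb; grey bars plus strand, tan bar minus strand), and the lower panel gives unscaled counts per library (vertical axis) for 5 of them and for *Rdh9* and *Gm28046* together. The bars of *Rdh9* (10 and 734) and *Gm28046* (330 and 0) are opposite, while the summed bars are 340 in KO and 734 in WT.

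The neighbours of *Rdh9* differed less between the libraries. *Rdh7*, a close relative on the other strand and the most abundant member of the family, had 4449 counts in KO and 7050 in WT (−0.07, −0.13 to −0.02). *Rdh16*, which oxidises retinol and 3α-hydroxysteroids, had 159 and 412 counts (−0.78, −1.05 to −0.51). *BC089597*, named Rdh16f2 in GENCODE and outside the rule, had 705 and 1488 (−0.49, −0.62 to −0.36). *Rdh1* had 5 and 3 counts and *Rdh19* none. Over the 6 genes of this cluster type that were kept, the median was −0.28, also with *Gm28046* taken at 3 counts in WT. These 6 include *Rdh9* itself, *Gm28046* and *Rdh5*, which lies elsewhere on chromosome 10 (chr10:128913593-128922888). *Rdh9* and *Gm28046* gave the lowest and the highest of the 6 values, and the division of reads between them was not tested. *Rdh5*, the 11-cis-retinol dehydrogenase, had 363 and 551 counts (−0.01, −0.20 to 0.18) and overlaps *Bloc1s1* on its strand. The counts of these overlapping genes summed to 1255 and 1600 (0.24, 0.13 to 0.35).

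*Rdh10*, which makes retinaldehyde for retinoic acid synthesis in the embryo and many tissues, had 126 counts in KO and 138 in WT (0.46, 0.10 to 0.82). Its sign turned with the scaling, to −0.14 under total counts. The enzymes that reduce retinaldehyde back to retinol did not share a direction. *Rdh11* had 268 and 788 counts (−0.96, −1.17 to −0.76), just inside the 2-fold limit, and *Dhrs4* had 331 and 709 (−0.51, −0.70 to −0.32). *Dhrs3*, which is induced by retinoic acid in many cells, had 1237 and 1746 counts (0.10, −0.01 to 0.20). *Rdh14* had 114 and 146 (0.23, −0.13 to 0.60), *Rdh13* had 67 and 85 (0.25, −0.24 to 0.73), and *Rdh12* had 3 counts in WT alone. The median over the 5 reductases kept was 0.10.

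The remaining *Dhrs* genes were expressed at low levels. *Dhrs7*, an enzyme of the endoplasmic reticulum, had 51 counts in KO and 168 in WT (−1.12, −1.61 to −0.67) and was the member just past the 2-fold limit, its interval reaching inside it. *Dhrs9*, linked to retinol and 3α-hydroxysteroid oxidation, had 16 and 48 counts (−0.98, −1.91 to −0.15) and was the member nearest to the limit on the other side. *Dhrs1* had 141 and 155 counts (0.45, 0.12 to 0.79). *Dhrs7b*, an enzyme of ether lipid synthesis, *Dhrs11* and *Dhrs13* had intervals that spanned 0. Their counts in KO and WT were 260 and 372 for *Dhrs7b* (0.08), 82 and 114 for *Dhrs11* (0.12) and 19 and 31 for *Dhrs13* (−0.11).

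The other 14 members had fewer than 10 counts in all and were not given a fold change. No read was counted on *Adh6b*, *Rdh8*, *Rdh19*, *Dhrs2* and *Dhrs7c* in either library. *Adh6a*, *Aldh1a2*, *Aldh1a3*, *Aldh1l2*, *Aldh3a1*, *Aldh3b2*, *Rdh1*, *Rdh12* and *Dhrs13os* had between 1 and 9 counts.

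The rest of the retinoid pathway held calls in both directions. Across all genes kept, 9.46% were called higher and 9.94% lower. The few calls in the short gene lists below are therefore not a result about the pathway. The authors' KEGG annotation assigns 17 members to retinol metabolism, of which 14 were kept, with a median of −0.48, and 71 other genes, of which 52 were kept, with a median of −0.07. Of these 52, 15 were lower (28.8%, against 9.94% of all genes) and 3 were higher (5.77%, against 9.46%), and the difference was not tested. The share of lower genes was not particular to retinol metabolism. Among non-member genes it was 31.7% for the KEGG term chemical carcinogenesis. It was 25.6% each for drug metabolism and for xenobiotic metabolism by cytochrome P450. Genes shared between these terms were not set apart. Of the binding proteins, *Ttr*, the plasma carrier of the retinol-binding protein and the highest by FPKM, was at 0.23, and *Rbp4*, the retinol-binding protein of plasma, was at −0.66 with 9758 counts in KO and 23245 in WT. None of the 4 kept was called. Among ester and cleavage enzymes 1 of 7 was called, *Lipe*, a hormone-sensitive lipase that cleaves retinyl esters, with 148 and 96 counts (1.21, 0.84 to 1.60). *Lpl*, the lipoprotein lipase and the highest of them by FPKM, was at −0.65, and *Lrat*, which esterifies retinol in stellate cells, had 45 and 126 counts (−0.89, −1.42 to −0.39).

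Retinoic acid breakdown gave 1 call of 2, *Cyp26b1* with 13 and 48 counts (−1.27, −2.30 to −0.39), while *Cyp26a1*, the main hepatic form and a target of retinoic acid, had 238 and 302 (0.25, −0.00 to 0.50). None of the 6 retinoic acid and retinoid X receptor genes was called, with a median of −0.05, and *Rxra*, the highest by FPKM, was at 0.16. Of 8 other dehydrogenases and reductases kept, the aldo-keto reductases *Akr1b7*, with 3 and 45 counts (−3.15, −5.65 to −1.68), and *Akr1b3*, with 33 and 108 (−1.11, −1.73 to −0.54), were lower, and *Sdr16c5*, a retinol dehydrogenase with 8 and 3 counts (1.81, −0.05 to 4.56), was higher. *Akr1a1*, the highest of them by FPKM, was at −0.21.

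Markers of non-parenchymal cells differed between the libraries as well. Across all genes kept, 9.46% were called higher and 9.94% lower, and the lists here are short. Of 8 stellate cell markers, *Lrat* among them, 3 were 2-fold lower, with a median of −0.70 and a summed level of 70.7 CPM in KO and 105 CPM in WT. Of these 3, *Hgf* had only 5 and 32 counts and *Ngfr* 4 and 24. Of 6 Kupffer cell and macrophage markers 2 were lower (median −0.58, 101 CPM and 136 CPM). Of 6 endothelial markers 1 was lower, *Lyve1* with 4 and 45 counts (median −0.49, 62.9 CPM and 79.7 CPM). Of 5 cholangiocyte markers 2 were higher, *Krt19* with 26 and 7 counts and *Krt7* with 15 and 6 (median 0.40). *Epcam* was at 0.14 and *Sox9* at −0.31. Most of the summed level of the 5, 164 CPM and 125 CPM, came from *Spp1*, with 1638 and 1875 counts (0.40). The 8 pericentral markers had a median of −0.06 (2388 CPM and 2390 CPM) and the 8 periportal markers one of 0.08 (3666 CPM and 3347 CPM), with none called in either zone. No marker of these lists was at 0 in both libraries. In whole liver, fewer cells of a type and less RNA per cell cannot be told apart, and the part of these cells in the values of the dehydrogenases was not tested. Genes of the circadian clock differed too, 6 of 9 output genes being 2-fold higher in KO (median 1.25). Of 4 other clock genes, *Arntl*, *Clock*, *Npas2* and *Nfil3*, 2 were 2-fold lower (median −0.93). They were *Arntl*, with 50 counts in KO and 218 in WT, and *Npas2*, with only 2 and 56. The 5 erythroid markers gave 1 call in each direction (median −0.59, 84.7 CPM and 80.4 CPM). *Alas2* was higher, at 1.22, and held 535 of their 911 counts in KO and 347 of 1303 in WT. The 4 globin genes were all below 0, *Hba-a1* at −0.56, *Hba-a2* at −0.93, *Hbb-bs* at −1.05 and *Hbb-bt* at −0.59. With 1 library per genotype, genotype and time of collection cannot be told apart.

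Matches to the seed of the miRNA were found in about as large a share of these genes as of all genes. The mature sequence of mouse miR-182-5p from RefSeq (GRCm38.p6, chr6:30165962-30165986, minus strand) is shown with its seed, bases 2 to 8, in capitals. Below it are the only 8-base matches to the seed, TTGCCAAA on the transcript strand, in the annotated 3′ UTRs of the members kept, with 10 bases on each side and the match in capitals.
miR-182-5p: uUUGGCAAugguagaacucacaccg
Aldh6a1: aacctattatTTGCCAAAttttgttatt
Dhrs9: tcctgaatccTTGCCAAAggagacagtt

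The match of *Aldh6a1* lies at chr12:84431692-84431699 on the minus strand and that of *Dhrs9* at chr2:69402937-69402944 on the plus strand (GRCm38). *Aldh6a1* was at 0.25 and *Dhrs9* at −0.98, so the genes with the match lay on opposite sides of 0. This made 2 of 36 members (5.56%), against 4.98% of the 12503 genes kept with an annotated 3′ UTR. A 7-base match, TTGCCAA or TGCCAAA, without the longer one was found in 4 members (11.1%, against 14.5% of all genes for either word). These were *Aldh3a2*, *Aldh3b3*, *Aldh5a1* and *Rdh10*, each with TTGCCAA. A match of letters is a description and does not show a functional site.

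The number of members past 2-fold changed with the scaling. With total counts as the scale, mitochondrial reads included, 15 members were at least 2-fold lower and none higher, namely 2 *Adh*, 7 *Aldh*, 3 *Rdh* and 3 *Dhrs* genes. On that scale 26.6% of all genes were lower and 4.60% higher, and the median of all genes was −0.60, with medians of −0.98 for *Adh*, −0.95 for *Aldh*, −0.64 for *Rdh* and −0.61 for *Dhrs*. Such a change of scale shifts all genes by about the same amount, so the order of the families could not change and is no support for it. The 10 other members above 0 under TMM were below 0 on that scale. *Adh7* was no longer called on that scale.

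**Figure D5:**
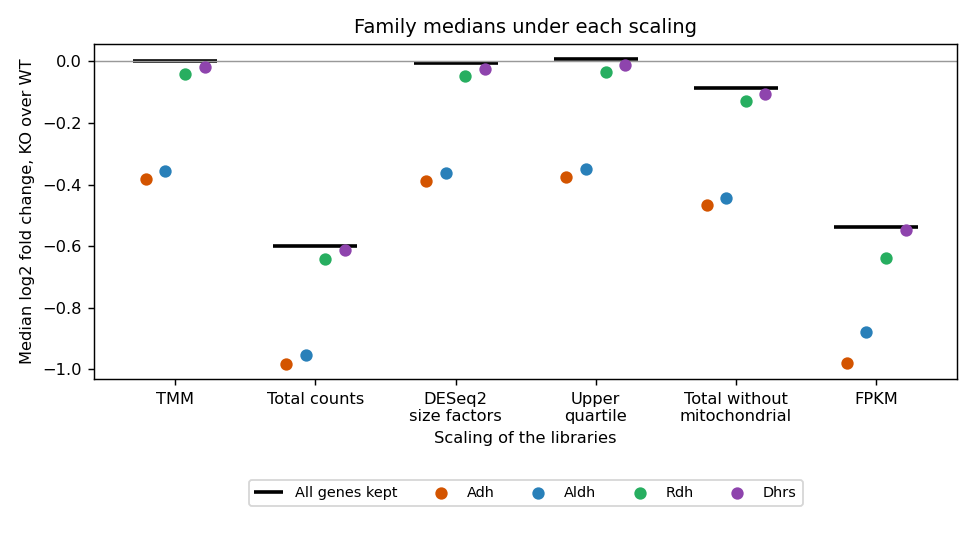
The median log2 fold change of KO over WT (vertical axis) is shown for each family (coloured points) and for all genes kept (black bars) under 6 scalings (horizontal axis). *Adh* and *Aldh* lie below the black bar, at −0.38 and −0.36 with TMM, *Rdh* and *Dhrs* lie close to it, and points and bars shift together because a scaling moves all genes by about the same amount.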

How the data were processed

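The authors deposited read counts per gene for the KO and the WT library, and the FPKM they computed from these counts. Count and FPKM gave ratios that differed between the libraries by 1.006 to 1.007, so the deposited FPKM follow total counts. The submitters' notes name HISAT2 2.0.4, StringTie, edgeR and the human build hg38. The identifiers and coordinates are those of mouse. GENCODE M21, on GRCm38, holds 34344 of the 34745 identifiers and gives 40 of the 50 members the same coordinates. Counting rules and strand are not given in the sources used here. The table also holds the authors' annotation, of which gene names, coordinates and KEGG terms were used.

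TMM factors and CPM with a prior count of 0.5 came from edgeR 4.0.16, and alternative size factors from DESeq2 1.42.0, both under R 4.3.3. Python 3.11.15 (scipy 1.17.1, numpy 2.4.6, pandas 2.3.3, matplotlib 3.10.9) served for the rest. The minimum for a gene was a sum of 10 counts. Intervals are exact Clopper-Pearson intervals at 95%, and a library at 0 was taken at 3 counts to state a fold difference. With 1 library per genotype no spread between mice could be estimated, and an exact test was run only as an alternative, with an assumed spread. Every member is named. Of the other pathway lists, genes past 2-fold and the gene with the highest FPKM were named, with other genes where the text describes the pathway, chosen after their values were seen. *Dhrsx* from these lists was not analysed here. Shared sequence is the percentage of 51-base words of a gene's annotated transcripts that occur in other genes. The longest 3′ UTR of each gene was taken from GENCODE, and the mature miRNA from RefSeq. Scaling and fold changes were tested on simulated counts with counting error only. Those counts held no difference in mitochondrial reads and no spread between mice, so the test does not cover these. Members and lists were chosen with earlier results of these data known. Sums over overlapping genes were added after the data were seen.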

Additional observations from a re-analysis of the deposited data

How the results depend on the processing

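With 1 library of each genotype there was nothing to leave out. No paired analysis was possible because there was only 1 library on each side. DESeq2's size factors, upper quartile factors and a prior count of 5 left each of the 36 single values within its counting interval, whereas total counts and the authors' FPKM moved 30 of them beyond it and total counts without mitochondrial genes moved 6.

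Under total counts, and likewise under the authors' FPKM with a pseudocount of 0.1, 0 members were at least 2-fold higher (*Adh* 0) and 15 lower (*Adh* 2, *Aldh* 7, *Rdh* 3, *Dhrs* 3). Medians under total counts were −0.86 over all members, −0.98 for *Adh*, −0.95 for *Aldh*, −0.64 for *Rdh* and −0.61 for *Dhrs*, and under FPKM −0.82, −0.98, −0.88, −0.64 and −0.55. Total counts without mitochondrial genes gave 6 lower (*Aldh* 2, *Rdh* 2, *Dhrs* 2). A minimum of 1 count gave 6 higher (*Adh* 2, *Aldh* 2, *Rdh* 1, *Dhrs* 1) and 6 lower (*Aldh* 3, *Rdh* 2, *Dhrs* 1). The share of all genes called is given here only for the main setting and for total counts. Counts of members at the other settings are therefore not a result about these families. With edgeR's exact test under an assumed coefficient of variation of 0.2 or of 0.4, 0 were higher (*Adh* 0) and 1 lower, *Rdh9* (*Aldh* 0, *Dhrs* 0). These calls follow from the assumed spread, which is no estimate from these mice, and support none of the values. Without members that overlap another gene on the same strand, 0 *Rdh* genes were lower and their median was 0.23. Summed over overlapping or near-identical genes, an alternative added after the data were seen, *Rdh9* with *Gm28046* was at −0.52 and the 3 *Aldh3b* genes at −0.89, neither of them called. Counting error alone leaves the 2-fold call of *Adh7*, *Aldh3b3* and *Dhrs7* unsettled, since their intervals reach inside 2-fold.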
